A study of Homo sapiens with 4 samples.

Results

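The 44 genes described here act in G2 and mitosis. They were chosen by symbol for their known role there, with earlier results of these data already known. All 44 were measured, out of 19775 genes read on the arrays. Each gene was read from 1 probe set, a group of short probes for 1 transcript, namely the brightest of those annotated to that gene alone. The study compared 2 established human hepatocellular carcinoma lines, Huh7 and Hep3B, with and without arsenic trioxide (ATO), an arsenic compound used against leukemia. The ATO group of each line received 3 μM ATO for 7 days, and the negative control group of each line received DMSO. RNA was hybridized to U133 Plus 2.0 arrays from Affymetrix, and there was 1 profile of ATO-treated and 1 profile of negative control cells per line, 4 in all. A ratio within a line therefore has no error of its own. The values are intensities in arbitrary units on a linear scale. Both lines are tumor-derived cultures, and Hep3B is known to lack p53, the transcription factor that induces cell cycle arrest, whereas Huh7 is known to carry a mutant form of it.

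Before mitosis a cell passes through G2, in which it builds up cyclin B and the kinase CDK1 that this cyclin activates. The transcripts of G2 and mitosis genes rise together in each cycle, driven by FOXM1 and by a MYB-MuvB complex, and in resting cells the DREAM complex holds the same genes down. Their summed level in a culture is therefore widely used as a readout of proliferation, also in liver tumors. In RNA from a whole culture, fewer cells in G2 and mitosis cannot be told apart from less of these transcripts per cell.

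With ATO, these genes lay mostly above the negative control in Huh7 and mostly below it in Hep3B. In ATO-treated Huh7 cells 42 of the 44 genes had a ratio over negative control above 1, where 51.1% of all genes did. In ATO-treated Hep3B cells 41 of the 44 had a ratio below 1, where 43.7% of all genes did. The combination of a ratio above 1 in Huh7 and below 1 in Hep3B was found for 39 of the 44 genes and for 18.9% of all genes. These counts use the profiles as deposited. The poly-A controls are transcripts meant to be added to each RNA in equal amounts. Scaled to them, 44 members were above 1 in Huh7, where 85.6% of all genes were. With this scaling 27 members were below 1 in Hep3B, where 17.2% of all genes were. Both held for 27 members and for 12.8% of all genes. No member had the reverse combination as deposited, which 23.9% of all genes had. Only CDC25C, AURKA and CDC20 were above 1 in both lines, a pattern of 32% of all genes, and only KIF11 and NUF2 were below 1 in both, a pattern of 24.7%. The median ratio of the members was 1.22 in Huh7 and 0.809 in Hep3B, or 0.29 and -0.31 on the log2 scale, against 0.01 and 0.04 for all genes. Scaling to the poly-A controls moved the medians of all genes to 0.29 and 0.27 and those of the members to 0.58 and -0.08, so that relative to all genes the members stood at 0.29 and -0.34. The log2 ratios ran between -0.06 and 0.65 in Huh7 and between -1.17 and 0.24 in Hep3B. The lower and upper quartiles of the log2 ratio were 0.12 and 0.37 in Huh7 and -0.49 and -0.11 in Hep3B.

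**Figure D1:**
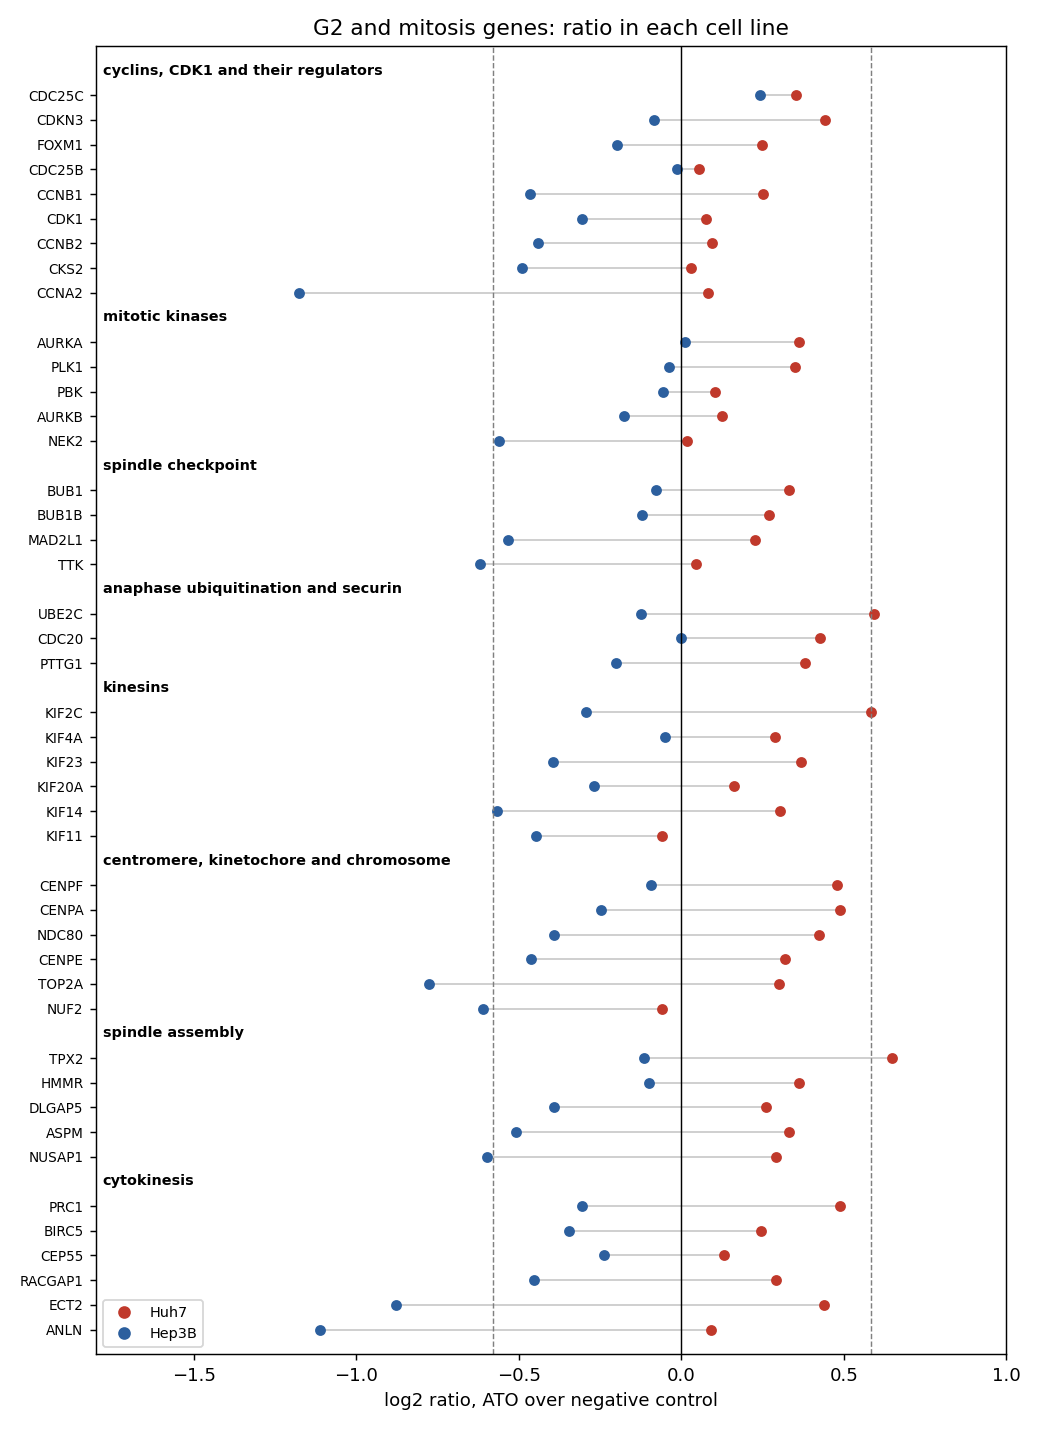
Log2 ratio, ATO over negative control, of the 44 single genes, grouped by function, with 1 point for Huh7 (red) and 1 for Hep3B (blue), and dashed lines at ratios of 1.5 and 0.67. The Huh7 point lies right of 0 for 42 genes and the Hep3B point left of 0 for 41 genes (51.1% and 43.7% of all genes). Scaling to the poly-A controls, which is not drawn, gives 44 and 27 genes (85.6% and 17.2% of all genes).

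Few members passed the ratio thresholds that the study used, 1.5 and 0.67. In Huh7 2 members were above 1.5, TPX2 and UBE2C, and 3.21% of all genes were. None was below 0.67 in Huh7, where 3.25% of all genes were. In Hep3B 7 of the 44 members were below 0.67, namely CCNA2, ANLN, ECT2, TOP2A, TTK, NUF2 and NUSAP1, and 4.02% of all genes were. None was above 1.5 in Hep3B, where 5.04% of all genes were, and none passed a threshold in both lines, which 0.804% of all genes did upwards and 0.587% downwards. With the lines as replicates and the cell line in the model, limma gave no member an adjusted p under 0.05, and it gave 0% of all genes one. The smallest adjusted p among the members was 0.506, for CDC25C. Before adjustment, 1 member passed p under 0.05 in limma with a higher level, CDC25C, as did 5.24% of all genes, and no member passed it with a lower level, as 4.3% of all genes did. A ratio above 1.2 in Huh7 together with one below 1/1.2 in Hep3B was found for 11 members and for 1.89% of all genes. Singly, 25 members were above 1.2 in Huh7, where 17% of all genes were, and 25 were below 1/1.2 in Hep3B, where 14.9% were. None was above 2 in Huh7, where 0.779% of all genes were, and 2 were below 0.5 in Hep3B, CCNA2 and ANLN, where 0.91% were. The limma model averages the lines, so opposite ratios cancel in it, and the median of the members' mean log2 ratio over the lines was -0.04. The difference between the lines itself could not be tested, because 1 profile per condition and line leaves no spread to set it against.

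**Figure D2:**
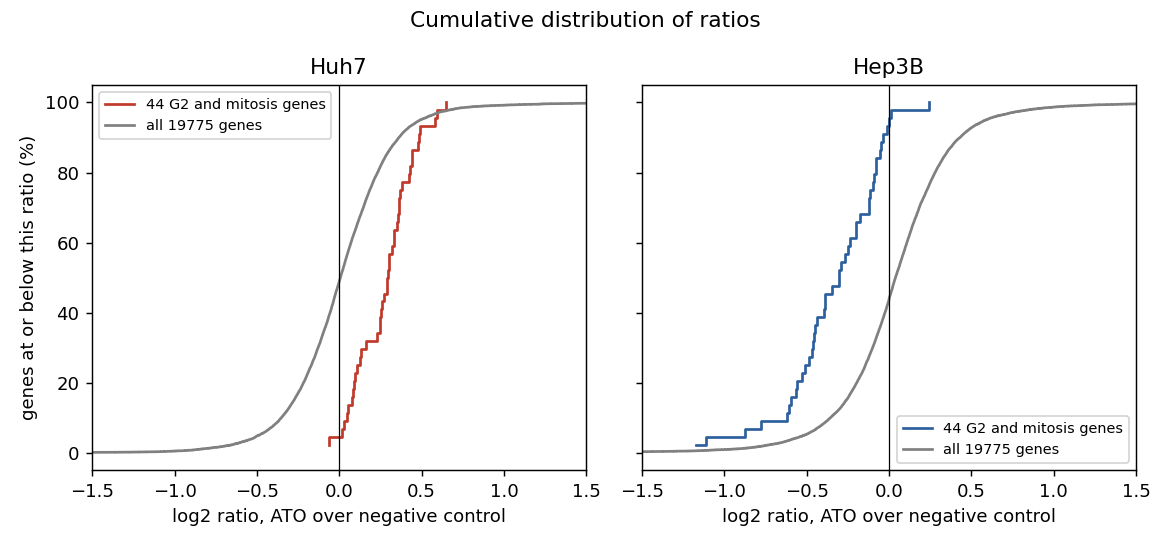
Cumulative distribution of the log2 ratio, ATO over negative control, in Huh7 (left) and Hep3B (right): the colored line is the 44 G2 and mitosis genes and the grey line all 19775 genes. Genes beyond 1.5 on either side are not drawn, and the members lie right of all genes over most of the range in Huh7, with a median of 0.29 against 0.01, and left of them in Hep3B, with -0.31 against 0.04 as deposited.

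The median probe set had an intensity between 15.8 and 16.3 on the 4 profiles, and every member was brighter than the overall median of 15.99 on all 4 of them, with means between 134 and 3242. Among the 12962 genes that bright, 50.5% had a ratio above 1 in Huh7, 43.8% a ratio below 1 in Hep3B and 17.6% both. The poly-A control transcripts, added before labeling, had median log2 ratios of -0.28 (Huh7) and -0.23 (Hep3B). They were thus lower on the ATO profile of each line, by about as much as the members' own medians differ from 0. Hybridization controls had 0.07 and 0.10, and the difference between the 3' and 5' ends of GAPDH and ACTB moved by at most 0.07 between the profiles of a line. All 10 measured hepatocyte markers were above the median probe set on the 4 profiles, with a summed intensity of 27819 in ATO-treated and 30532 in negative control Huh7 cells, and 45433 in ATO-treated and 60055 in negative control Hep3B cells. With ATO 8 of the 10 were lower in Huh7, all but ALB and AHSG, and 7 of 10 were lower in Hep3B, all but FGA, FGB and TTR. AFP, a fetal liver protein, was dim in Huh7, at 62.1 with ATO and 91.8 in its control, and bright in Hep3B, at 1646 with ATO and 3567 in its control. Of 10 measured leukocyte, fibroblast and endothelial markers 3 were above the median probe set on all profiles, and their summed intensity stayed between 190.1 and 210.0.

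Promoters are shown for the 4 members with the lowest and the 2 with the highest mean log2 ratio that had a sequence in the RefSeq table for GRCh38.p14, because most members had the same direction within a line. Each window runs from 250 bases before to 50 bases after the outermost start of the gene, 5′ to 3′ on the gene's strand. Capitals mark 3 short motifs on either strand. TTTGAA and TTCGAA are forms of the core of the cell cycle genes homology region (CHR) that MuvB complexes bind. CCAAT is bound by the factor NF-Y. Other forms of the CHR core were not searched, so a window without a marked core may still hold one. The windows of CCNA2 (chr4:121823834-121824133, minus strand), ANLN (chr7:36389612-36389911, plus strand), NUF2 (chr1:163321704-163322003, plus strand) and NEK2 (chr1:211675572-211675871, minus strand) belong to the genes with the lowest mean ratios.
CCNA2: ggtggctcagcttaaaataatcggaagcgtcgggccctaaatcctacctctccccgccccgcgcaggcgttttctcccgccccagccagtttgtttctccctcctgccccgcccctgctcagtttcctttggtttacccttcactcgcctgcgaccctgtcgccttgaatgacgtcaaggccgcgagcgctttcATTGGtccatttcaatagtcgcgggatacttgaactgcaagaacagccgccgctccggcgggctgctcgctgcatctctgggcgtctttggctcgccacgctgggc
ANLN: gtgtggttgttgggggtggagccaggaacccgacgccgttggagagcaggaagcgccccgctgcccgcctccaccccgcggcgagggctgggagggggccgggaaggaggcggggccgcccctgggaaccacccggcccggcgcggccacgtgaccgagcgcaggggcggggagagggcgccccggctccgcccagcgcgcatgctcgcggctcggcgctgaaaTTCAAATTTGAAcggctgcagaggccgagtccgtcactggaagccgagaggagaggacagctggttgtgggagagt
NUF2: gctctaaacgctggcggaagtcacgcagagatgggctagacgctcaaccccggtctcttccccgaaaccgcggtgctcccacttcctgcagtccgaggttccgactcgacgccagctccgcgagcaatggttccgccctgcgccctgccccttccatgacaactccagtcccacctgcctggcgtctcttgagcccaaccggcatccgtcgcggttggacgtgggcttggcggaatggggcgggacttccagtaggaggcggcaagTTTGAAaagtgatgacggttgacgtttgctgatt
NEK2: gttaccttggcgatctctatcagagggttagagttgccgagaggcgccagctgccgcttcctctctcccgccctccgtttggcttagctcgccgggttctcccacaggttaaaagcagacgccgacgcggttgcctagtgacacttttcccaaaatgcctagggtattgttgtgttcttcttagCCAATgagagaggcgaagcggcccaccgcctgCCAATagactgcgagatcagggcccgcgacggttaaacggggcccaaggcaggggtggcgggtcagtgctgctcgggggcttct
The windows of CDC25C (chr5:138338306-138338605, minus strand) and CDC20 (chr1:43358731-43359030, plus strand) belong to those with the highest.
CDC25C: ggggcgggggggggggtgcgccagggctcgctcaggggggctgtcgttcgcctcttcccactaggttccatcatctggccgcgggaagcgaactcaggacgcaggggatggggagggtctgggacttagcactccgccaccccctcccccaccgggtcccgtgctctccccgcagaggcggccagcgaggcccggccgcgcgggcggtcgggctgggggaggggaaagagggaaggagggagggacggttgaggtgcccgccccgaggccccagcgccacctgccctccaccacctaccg
CDC20: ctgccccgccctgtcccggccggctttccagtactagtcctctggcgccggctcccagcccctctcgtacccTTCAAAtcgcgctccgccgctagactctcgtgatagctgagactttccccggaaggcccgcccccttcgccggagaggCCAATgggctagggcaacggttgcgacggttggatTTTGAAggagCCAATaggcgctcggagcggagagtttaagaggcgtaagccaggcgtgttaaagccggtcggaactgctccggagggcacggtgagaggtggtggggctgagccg
In ANLN a CHR core on each strand stands side by side, beginning 26 and 20 bases before the start. CDC20 holds 2 CHR cores and 2 CCAAT boxes, NEK2 holds 2 CCAAT boxes, and CCNA2 holds 1 CCAAT box read on the opposite strand. The CDC25C window holds none of the 3 motifs, although of the 4 windows given for the starts of this gene 2 hold a CHR core and 2 hold a CCAAT box.

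A promoter was given for 36 of the 44 members. Only TTTGAA and TTCGAA were counted as a CHR core. Such a core was found in 26 of these 36 windows (72.2%) and in 13.4% of the 15384 windows of genes read on the arrays. CCAAT was found in 28 of 36 (77.8%) and in 36.1% of those windows, and both motifs together in 22 of 36 (61.1%) and in 5.51%. When any window of a gene counted, 28 members held a CHR core and 30 held CCAAT, against 17.2% and 41.7% of genes read on the arrays. Within the members, the log2 ratios of the 26 genes with a CHR core in the outermost window had their median at 0.30 in Huh7 and at -0.39 in Hep3B. The 10 without TTTGAA or TTCGAA there had medians of 0.21 and -0.28, and other forms of the core were not searched in them. These 10 include CDC25B and CDC25C, which hold a core in another window and had log2 ratios of -0.01 and 0.24 in Hep3B. Medians by any window are not given here, and the difference between genes with and without a core was not tested. For CCAAT the medians hardly differed, at 0.30 and -0.35 for the 28 genes with it and at 0.30 and -0.34 for the 8 without it. A match says that these letters stand in the window, not that a factor was bound there.

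On their brightest probe sets, the cyclins, CDK1 and their regulators were closer to the negative control in ATO-treated Huh7 cells than in ATO-treated Hep3B cells. All 9 had a ratio above 1 in Huh7, with a median log2 ratio of 0.10, and 8 of 9 had a ratio below 1 in Hep3B, with a median of -0.31. CCNA2 encodes cyclin A2, which drives S phase and entry into mitosis, and its mean log2 ratio was the lowest of all members, at -0.55 ± 0.89 (SD, n = 2 lines). Its intensity was 210.5 in ATO-treated and 199 in negative control Huh7 cells, and 224 in ATO-treated and 505 in negative control Hep3B cells. Only the negative control of Hep3B stood apart, so that the ratio was 1.06 in Huh7 and 0.443 in Hep3B. A second CCNA2 probe set gave 1.42 and 0.944, thus a higher value in Huh7 and hardly a lower one in Hep3B, and the size of the CCNA2 difference depends on which is read. The B-type cyclins, the activators of CDK1 at mitosis, lay at 1.19 times the control in Huh7 and at 0.724 times it in Hep3B (CCNB1), and at 1.07 and 0.737 times it (CCNB2). CDK1, the mitotic kinase itself, had 1.05 and 0.809, and CKS2, a small CDK-binding protein, 1.02 and 0.713. The closeness to the control in Huh7 depends on the probe set. The second probe sets gave 1.48 and 0.706 for CCNB1, 1.27 and 0.858 for CCNB2, and 1.32 and 0.869 for CDK1. With the mean of all probe sets the group medians became 0.25 in Huh7 and -0.17 in Hep3B on the log2 scale. With the second brightest probe set alone they were 0.40 and -0.20. Those medians cover only CCNA2, CCNB1, CCNB2, CDK1 and CDKN3, so the genes changed as well as the probe sets.

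CDC25C, a phosphatase that activates CDK1, went the other way in Hep3B. Its intensity was 124 in ATO-treated and 97.3 in negative control Huh7 cells, and 225 in ATO-treated and 190.3 in negative control Hep3B cells. With ratios of 1.28 and 1.18 it had the highest mean log2 ratio of the list, 0.30 ± 0.08 (SD, n = 2 lines), with limma's adjusted p at 0.506. The related phosphatase CDC25B had 1.04 and 0.991. CDKN3, a phosphatase that acts on CDKs, had 1.36 and 0.945. FOXM1, the transcription factor that drives many genes of this list, had 1.19 and 0.871, so that its ratios ran the same way as the median member. The probe sets of FOXM1, PTTG1 and CENPA carry the suffix for possible cross-hybridization, so their values are uncertain.

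As deposited and on the brightest probe sets, the mitotic kinases had the group median closest to 0 in Hep3B. Scaling to the poly-A controls turned it to 0.17, and the second brightest probe sets, of AURKA, AURKB and NEK2 alone, to -0.29. On the brightest probe sets, all 5 kinases had ratios above 1 in Huh7, with a median log2 ratio of 0.13. In Hep3B 4 of 5 were below 1, with a median of -0.06. AURKA, which matures centrosomes and builds the spindle, had an intensity of 2600.0 in ATO-treated and 2023 in negative control Huh7 cells, and 1301 in ATO-treated and 1289 in negative control Hep3B cells. Its ratio was thus 1.29 in Huh7 and 1.01 in Hep3B. PLK1, which acts from mitotic entry to exit, had a like pair of ratios, 1.28 and 0.974. NEK2 is a kinase that separates centrosomes. Its intensity was 395 in ATO-treated and 391 in negative control Huh7 cells, and 565 in ATO-treated and 833 in negative control Hep3B cells, ratios of 1.01 and 0.678. A second, dimmer NEK2 probe set gave 1.32 and 0.816. AURKB, the kinase of the chromosomal passenger complex, had ratios of 1.09 and 0.885, and PBK, a kinase active in mitosis, 1.08 and 0.961.

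All 4 genes of the spindle checkpoint, which delays anaphase until every chromosome is attached, were above 1 in Huh7 and below 1 in Hep3B, with median log2 ratios of 0.25 and -0.33. TTK, the kinase that starts checkpoint signaling, was the lowest of them in Hep3B. It had an intensity of 394 in ATO-treated and 382 in negative control Huh7 cells, and 298 in ATO-treated and 458 in negative control Hep3B cells. Its ratios were 1.03 and 0.651. BUB1, a kinase that recruits other checkpoint proteins, differed more in Huh7 than in Hep3B. It had 517 in ATO-treated and 410.3 in negative control Huh7 cells, and 358 in ATO-treated and 378 in negative control Hep3B cells, ratios of 1.26 and 0.947. BUB1B, a part of the complex that restrains CDC20, had ratios of 1.21 and 0.920. MAD2L1, another part of that complex, had 1.17 and 0.692, and its second probe set was lower in Hep3B, at a ratio of 0.445.

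The genes of anaphase ubiquitination and the securin, CDC20, UBE2C and PTTG1, had the highest group median in Huh7. Their median log2 ratio was 0.43 in Huh7, and -0.12 in Hep3B, where scaling to the poly-A controls turned it to 0.11. UBE2C, the ubiquitin-conjugating enzyme of the anaphase-promoting complex, had an intensity of 1502 in ATO-treated and 996 in negative control Huh7 cells, and 1729 in ATO-treated and 1882 in negative control Hep3B cells. Its ratio of 1.51 in Huh7 was just past the threshold, and the ratio in Hep3B was 0.919. PTTG1, the securin that blocks separation of sister chromatids, had 4106 in ATO-treated and 3154 in negative control Huh7 cells, and 2656 in ATO-treated and 3054 in negative control Hep3B cells. Its ratios were 1.30 and 0.870. CDC20, the activator of the anaphase-promoting complex, had 1.34 and 1.001, and was the member closest to no difference in Hep3B.

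**Figure D3:**
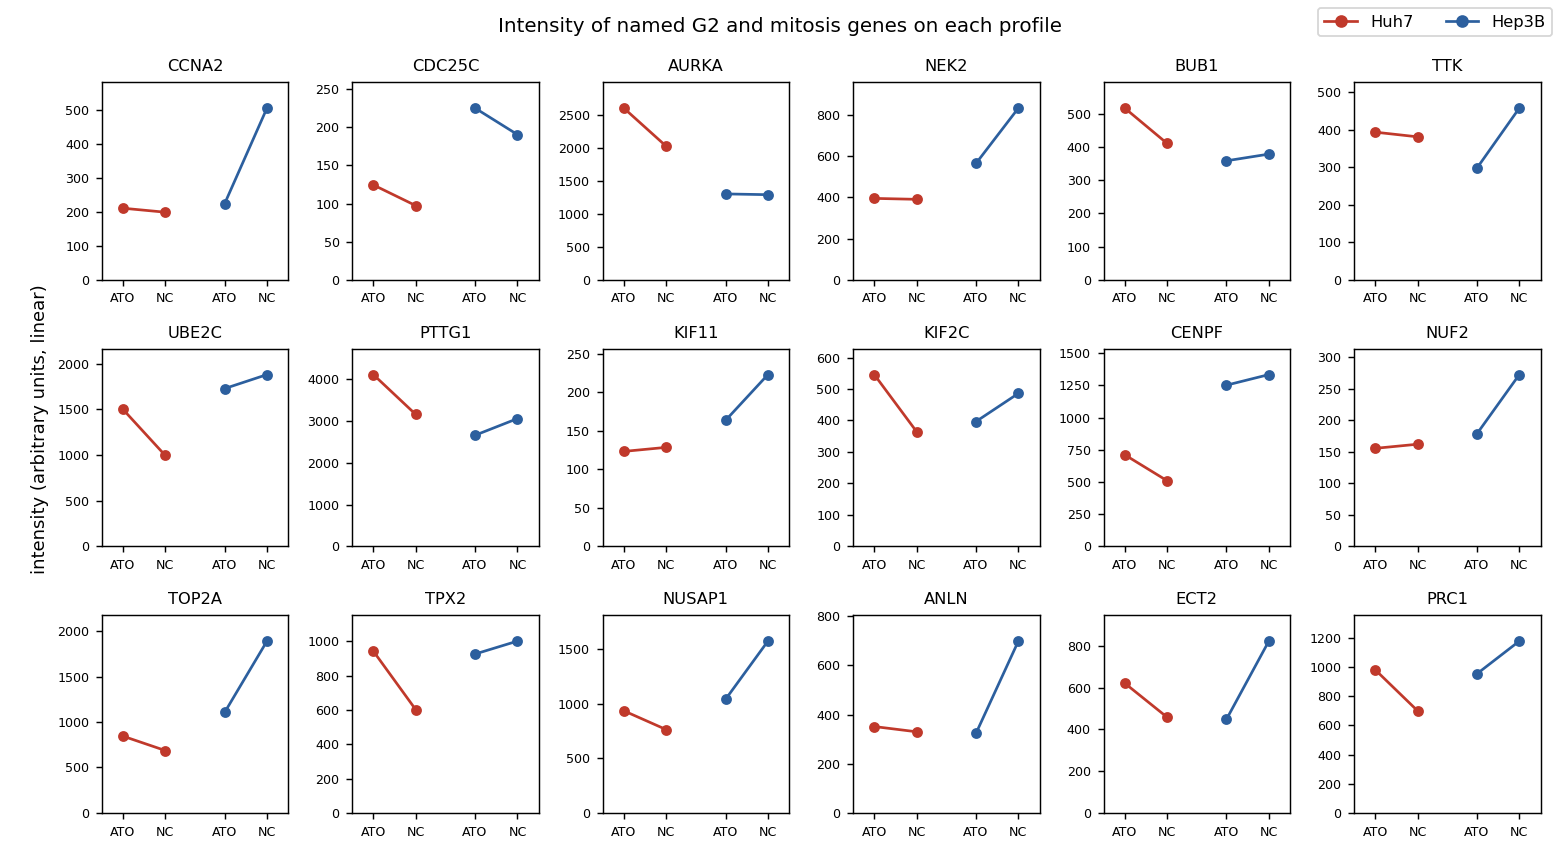
Intensity on a linear scale from 0 for the 18 members described by profile, each panel with ATO and negative control (NC) of Huh7 (red) and of Hep3B (blue), 1 point per profile. The negative control of Hep3B is the highest point in every panel but those of CDC25C, AURKA, BUB1, PTTG1 and KIF2C.

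Kinesins, the motors that move chromosomes and build the spindle, were below 1 in Hep3B for 6 of 6 and above 1 in Huh7 for 5 of 6, with median log2 ratios of -0.34 in Hep3B and 0.30 in Huh7. KIF2C, which removes microtubule ends at the centromere, had an intensity of 546 in ATO-treated and 364 in negative control Huh7 cells, and 397 in ATO-treated and 486 in negative control Hep3B cells. The ratio of 1.498 in Huh7 lay just under the threshold of 1.5, and that in Hep3B was 0.816. KIF11, the motor that pushes the spindle poles apart, was the kinesin below 1 in both lines. It had 123 in ATO-treated and 128 in negative control Huh7 cells, and 163 in ATO-treated and 223 in negative control Hep3B cells, ratios of 0.959 and 0.733. Just outside the threshold in Hep3B stood KIF14, a motor of cytokinesis, at 0.675, with 1.23 in Huh7. KIF23, the motor of the central spindle, had 1.29 and 0.761, KIF20A, which brings AURKB to the midzone, 1.12 and 0.830, and the chromosome-bound KIF4A 1.22 and 0.967.

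The genes of the centromere, the kinetochore and chromosome structure had the lowest group median in Hep3B, -0.43, and a median of 0.37 in Huh7. TOP2A, the topoisomerase that untangles sister chromatids, had an intensity of 845 in ATO-treated and 686 in negative control Huh7 cells, and 1105 in ATO-treated and 1890.4 in negative control Hep3B cells. The ratios were 1.23 and 0.584, and a second probe set gave 1.18 and 0.682. NUF2, a subunit of the NDC80 complex that binds microtubules, had 156 in ATO-treated and 162 in negative control Huh7 cells, and 179 in ATO-treated and 273 in negative control Hep3B cells. It was thus slightly below its control in Huh7, at 0.960, and further below in Hep3B, at 0.655. Its partner NDC80 differed from it in Huh7, with ratios of 1.34 and 0.763. CENPF, a large kinetochore protein, had 711 in ATO-treated and 509 in negative control Huh7 cells, and 1251 in ATO-treated and 1333 in negative control Hep3B cells, ratios of 1.40 and 0.938. CENPA, the histone that marks the centromere, had ratios of 1.40 and 0.842, and CENPE, a kinetochore motor, 1.25 and 0.726.

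All 5 genes of spindle assembly were above 1 in Huh7, with a median log2 ratio of 0.33, and below 1 in Hep3B, with -0.39. TPX2, which activates AURKA and nucleates microtubules, had the highest ratio of all members in Huh7. It had an intensity of 944 in ATO-treated and 602 in negative control Huh7 cells, and 927 in ATO-treated and 1002 in negative control Hep3B cells, ratios of 1.57 and 0.925. Both ATO profiles and the Hep3B control were close to each other, and the Huh7 control lay below them. NUSAP1, which bundles spindle microtubules, had 935 in ATO-treated and 763 in negative control Huh7 cells, and 1040.3 in ATO-treated and 1574 in negative control Hep3B cells, ratios of 1.23 and 0.661. ASPM, a protein of the spindle poles, had ratios of 1.26 and 0.702, and of 1.61 and 0.706 on its second probe set. DLGAP5, which stabilizes spindle fibers, had 1.198 and 0.763, and the hyaluronan receptor HMMR, also a spindle protein, 1.28 and 0.934.

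Cytokinesis genes were above 1 in Huh7 and below 1 in Hep3B for 6 of 6, with median log2 ratios of 0.27 and -0.40. ANLN, the anillin that links actin and myosin in the contractile ring, had an intensity of 351 in ATO-treated and 329.9 in negative control Huh7 cells, and 324 in ATO-treated and 699 in negative control Hep3B cells. The 3 lower profiles were within a narrow range, and the ratios were 1.06 and 0.463. A second ANLN probe set gave 1.204 and 0.555. ECT2, which activates RhoA at the cleavage furrow, had 621 in ATO-treated and 458 in negative control Huh7 cells, and 448 in ATO-treated and 822 in negative control Hep3B cells. With ratios of 1.36 and 0.545 it had the widest gap between the lines of all members, a difference in log2 ratio of 1.32, although a second, dimmer ECT2 probe set gave 1.28 and 0.893. PRC1, which bundles the microtubules of the midzone, had 982 in ATO-treated and 700.0 in negative control Huh7 cells, and 954 in ATO-treated and 1178 in negative control Hep3B cells. Its ratios were 1.40 and 0.810. RACGAP1, the partner of KIF23, had 1.22 and 0.730, BIRC5, or survivin, of the chromosomal passenger complex, 1.19 and 0.788 (1.69 and 0.980 on its second probe set), and CEP55, which recruits the final cutting machinery, 1.10 and 0.848.

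The other probe sets of the members gave a further reading of the same RNA, which is not a replicate. Of 26 probe sets beyond the brightest that were at or above the median intensity, for 19 of the genes, 24 were above 1 in Huh7, 24 were below 1 in Hep3B and 22 did both. The medians of these 26 were 0.33 (Huh7) and -0.26 (Hep3B) in log2 ratio. All bright probe sets of a gene had the same direction in Huh7 for 17 of 19 genes, the exceptions being AURKA and MAD2L1, and in Hep3B for 16 of 19, the exceptions being AURKA, CDK1 and HMMR. The log2 ratios of the probe sets of a gene spanned a median of 0.18 in Huh7 and 0.22 in Hep3B, which is of the order of the members' own log2 ratios. The 11 probe sets below the median intensity had a median of 0.18 and -0.14.

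At the median, the lines lay closer together in these genes with ATO than without it. With ATO, 18 of the 44 members were lower in Huh7 than in Hep3B, where 47.1% of all genes were. In the negative control 33 of the 44 were, where 45.7% of all genes were. On the log2 scale the median of Huh7 over Hep3B was 0.05 among ATO profiles and -0.63 among control profiles, and for all genes it was 0.03 and 0.04. Without regard to sign, the median difference was 0.41 among ATO profiles and 0.66 among control profiles, and it was smaller with ATO for 27 of 44 members and for 51.8% of all genes. These values come from the same 4 profiles as the ratios and follow from them.

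**Figure D4:**
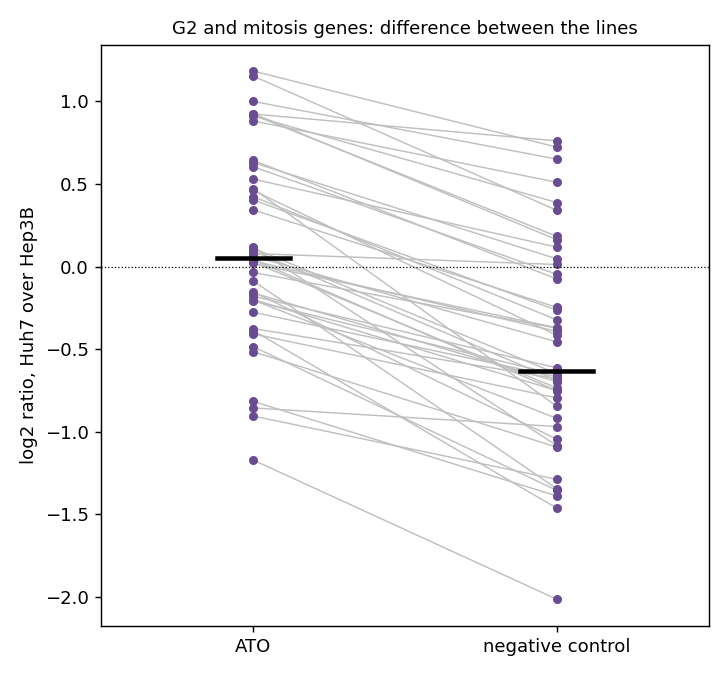
Log2 ratio of Huh7 over Hep3B for each of the 44 members with ATO (left) and in the negative control (right), lines joining a gene and black bars marking the medians. The median is 0.05 among ATO profiles and -0.63 among control profiles.

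Other genes of the same machinery were examined as lists. The 2 genes named from each further list have its largest mean change over the lines. Opposite ratios cancel in that mean, so this choice favors genes with the same direction in both lines. Over all genes 51.1% were above 1 in Huh7, 43.7% below 1 in Hep3B and 18.9% both. Of 71 measured further G2 and mitosis genes, 56 were above 1 in Huh7, 49 below 1 in Hep3B and 38 both, with median log2 ratios of 0.21 and -0.14. In this list TRIP13, which remodels checkpoint complexes, was higher in both lines, at 1.43 and 1.39, and CENPK, a centromere protein, was lower in both, at 0.899 and 0.540. Condensin and cohesin genes, which compact chromosomes and hold sister chromatids, had medians of 0.20 and -0.24, with 13 of 19 above 1 in Huh7 and 15 of 19 below 1 in Hep3B. The cohesin subunit RAD21 had ratios of 0.810 and 0.531, and the condensin subunit NCAPH2 1.30 and 1.60. The anaphase-promoting complex, whose core subunits are present throughout the cycle, stayed near the negative control, with medians of -0.08 and -0.03 over 15 genes. Among these, UBE2S, the enzyme that extends ubiquitin chains, had 1.49 and 0.974, close to the ratios of UBE2C, while ANAPC16 had 0.865 and 0.922.

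Regulators of these genes and CDK inhibitors were also examined as lists. The 14 genes of the DREAM and MYB-MuvB regulators had 7 above 1 in Huh7, near the 51.1% of all genes. In Hep3B 10 of the 14 were below 1, where 43.7% of all genes were, and their list had a median of -0.14 there. Of this list, E2F5, a repressive E2F factor, had ratios of 0.735 and 0.775, and the repressor E2F7 had 1.03 and 0.581. Of 16 measured CDK inhibitors and arrest genes 10 were above 1 in both lines, where 32% of all genes were. The medians of these 16 were 0.21 in Huh7 and 0.13 in Hep3B. CDKN1A, the p21 inhibitor of CDKs, had an intensity of 353 in ATO-treated and 224 in negative control Huh7 cells, and 188 in ATO-treated and 83.9 in negative control Hep3B cells, so it was higher in both lines. CDKN1B, the p27 inhibitor, had 333 in ATO-treated and 524 in negative control Huh7 cells, and 485 in ATO-treated and 841 in negative control Hep3B cells, so it was lower in both. CDKN1A and CDKN1B were named for the largest mean change over the lines, and opposite ratios cancel in that mean. Their same direction in both lines is therefore partly a result of this choice. Of all 16 genes of the list, 0 were above 1 in Huh7 and below 1 in Hep3B, where 18.9% of all genes were. Whether these inhibitors bear on the ratios of the members was not tested.

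The 40 genes of G1/S and replication were mostly above 1 in Huh7 and about evenly split in Hep3B. They had 30 above 1 in Huh7, where 51.1% of all genes were, with a median log2 ratio of 0.21. In Hep3B 21 of them were below 1, where 43.7% of all genes were, with a median of -0.01. The combination of above 1 in Huh7 and below 1 in Hep3B was found for 12 of the 40 and for 18.9% of all genes. It was found for 39 of 44 members, a difference that was not tested. Among them CCNE2, cyclin E2 of S phase entry, was lower in both lines, at 0.565 and 0.485, and GINS4, a subunit of the replicative helicase, was higher, at 2.58 and 1.29. None of the genes of these lists had an adjusted p under 0.05 from limma. Before adjustment, when 5.24% of all genes were higher and 4.3% lower at p under 0.05, this was so for 3 higher and 2 lower of the 71 further G2 and mitosis genes, for 2 higher and none lower of the 19 of condensin and cohesin, and for 9 higher and 3 lower of the 40 of G1/S and replication. It was so for 3 higher and 2 lower of the 16 CDK inhibitors and arrest genes, none higher and 2 lower of the 14 DREAM and MYB-MuvB regulators, and none of the 15 of the anaphase-promoting complex.

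**Figure D5:**
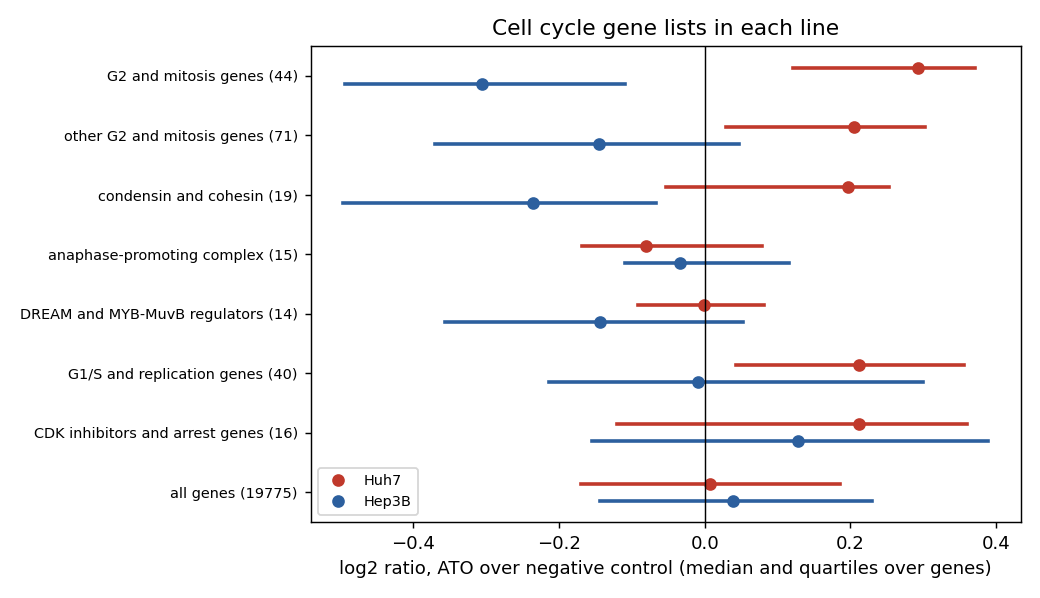
Median (point) and quartiles (bar) of the log2 ratio, ATO over negative control, over the measured genes of each list (number in parentheses) in Huh7 (red) and Hep3B (blue). The G2 and mitosis genes have medians of 0.29 and -0.31, further apart than those of the other lists drawn. The gene lists were chosen with earlier results of these data known.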

How the data were processed

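The authors' methods state that the U133 Plus 2.0 arrays were summarized by Robust Multi-array Average, logged and normalized between arrays with simpleaffy. The deposited values are a linear intensity for each of 54675 probe sets in 4 profiles. Who returned them from the log scale, and whether a profile is 1 array or a mean, is not given in the sources used here, so p-values measure only the spread between these profiles. The number of profiles limits the precision.

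By the platform annotation, 41097 of the probe sets named 1 gene, 1801 named several and for 11777 no symbol was listed. The brightest probe set with 1 symbol stood for each of 19775 genes. Ratios were taken from the deposited intensities. Across lines, limma 3.58.1 in R 4.3.3 was fitted to log2(intensity + 16) over all genes on cell line and treatment, with 1 residual degree of freedom, 1.81 prior degrees of freedom and Benjamini-Hochberg adjustment at 0.05. The lines pair the profiles by design. Members and lists were chosen with earlier results of these data known. Profile values were given for the highest and lowest mean log2 ratio of each functional group and for members past 1.5 or 0.67, and 2 genes were named per further list by the largest mean change. Genes without a probe set of their own (CIT, ANAPC1, CDKN2C, BTG2, HNF4A and CD68) were not analysed here. The code was run on simulated data with a spread far smaller than that of these profiles, which checks the code and says nothing of its power here. Alternatives covered the probe set, scaling, dim genes, thresholds, the offset, the trend, the block, the methods' t-test and each line left out, and, added after seeing the data, the second brightest probe set and scaling to the poly-A controls.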

Additional observations from a re-analysis of the deposited data

Results flagged for a closer look

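The median log2 ratio of ATO over negative control differed between the lines by 0.60, Huh7 minus Hep3B, with a median above 0 in Huh7 and below 0 in Hep3B. Each line has 1 ratio per gene, so this difference was not tested. Among the members, 11 were above a ratio of 1.2 in Huh7 and below 1/1.2 in Hep3B, where 1.89% of all genes were, and none had the reverse. Their differences in log2 ratio, Huh7 minus Hep3B, were likewise not tested. Of the cytokinesis genes, ECT2 differed by 1.32, PRC1 by 0.79 and RACGAP1 by 0.75. Of the centromere, kinetochore and chromosome genes, TOP2A differed by 1.07, NDC80 by 0.81 and CENPE by 0.78. The spindle genes NUSAP1 and ASPM differed by 0.89 and 0.84, and the kinesins KIF2C, KIF14 and KIF23 by 0.88, 0.87 and 0.76.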

How the results depend on the processing

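Scaling to the poly-A controls, chosen after seeing the data, changed the direction most. It left 44 members above 1 in Huh7, where 85.6% of all genes were, and 27 below 1 in Hep3B, where 17.2% were. Both held for 27 members and for 12.8% of all genes. With this scaling 17 members were above 1 in both lines, 0 below 1 in both, 20 above 1.5 in Huh7 and 3 below 0.67 in Hep3B. The shares of all genes for these last counts are not given here. The scaling reversed the Hep3B medians of the mitotic kinases (0.17) and of anaphase ubiquitination and securin (0.11). Over the planned settings that kept all 44 members, 40 to 42 were above 1 in Huh7, 40 to 43 below 1 in Hep3B and 37 to 40 both, with medians of 0.25 to 0.29 in Huh7 and -0.33 to -0.26 in Hep3B. The median of the mean log2 ratio over the lines, -0.04, lay between -0.31 and 0.29 when 1 line was left out, so it has no direction of its own. With each profile centred on its median, 1 member was above 1 in both lines, 4 were below 1 in both, and 1 was above 1.5 in Huh7, TPX2. Quantile normalization also left 1 above 1.5 in Huh7. Thresholds of 2 and 0.5 left 0 members above in Huh7 and 2 below in Hep3B, against 0.779% and 0.91% of all genes. Thresholds of 1.2 and 1/1.2 gave 25 and 25, against 17% and 14.9% of all genes. The second brightest probe set, chosen after seeing the data, covers 19 members, of which 19 were above 1 in Huh7, 18 below 1 in Hep3B, 18 both, 1 above 1 in both lines, 0 below 1 in both, 2 below 0.67 in Hep3B and 2 above 1.5 in Huh7, ASPM and BIRC5. With it the spindle checkpoint rests on MAD2L1 alone, at -1.17 in Hep3B. Apart from the changed thresholds, no shares of all genes are given here for the planned settings or the second brightest probe set. Their counts of ratios therefore cannot be set against all genes. CDC25C, the member with an unadjusted p under 0.05, was lost with no offset, with an intensity trend, with the mean of probe sets, with dim genes left out, by the methods' t-test and with no cell line as the block, which left 0 members each. Over all genes limma called 8 with no offset, 9 with a trend and 3 with dim genes left out, none of them a member. Depth is not defined for these intensities, and no background call was used.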

Other observations

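Across the 44 members, the log2 ratios in Huh7 and in Hep3B had a Spearman correlation of 0.38, and across all 19775 genes of 0.20. The ratios of the lines share no profile, but genes of 1 profile do not vary independently, and the value is a description.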
